A study of Mus musculus with 2 samples.

Results

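Collagen cells were 49 of the 3302 cells of the total epithelial library and 77 of the 4771 cells of the sorted basal library, 126 of 8073 cells in all. They were the cells in which the summed counts of Col1a1, Col3a1 and Dcn, which encode the fibrillar collagens I and III and the proteoglycan decorin, were 3 or more and the summed counts of the keratins Krt5, Krt14, Krt8, Krt18 and Krt19 were 3 or fewer. The label "fibroblast-like" held for only some of them. In the cells that had both collagen and Dcn counts the fibroblast genes Pi16, Clec3b, Mfap5 and Igfbp6 were abundant, whereas cells with collagen but no Dcn led with Gfra3, Kcna1 and Matn2, and cells with Dcn alone led with Acta2, Cxcl14 and Tagln. The cells were selected on the measured counts of the 8 collagen, Dcn and keratin genes named in the rule, so the levels of those genes are given as a description.

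The study profiled the transcriptomes of single mammary gland cells on the 10X Genomics Chromium platform, in which the transcripts of a cell share a barcode and each molecule carries a unique molecular identifier (UMI). Both libraries came from adult mice of the inbred FVB/NJ strain, with 8 mice in the series, none of them treated. The total epithelial library held Lin-CD24+ cells and the sorted basal library held Lin-CD29hiCD24+ cells, where Lin- cells lack the surface proteins TER119, CD45 and CD31 of red cells, leukocytes and endothelium. Mice were pooled and each gate gave 1 library, so no value has a replicate check, no test between the libraries was possible, and all intervals cover counting error only.

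Fibroblasts are the mesenchymal cells that secrete and remodel the collagens, proteoglycans and elastic fibres of connective tissue. In the mammary gland they surround the ducts and the fat pad and supply growth factors and matrix to the epithelium. CD24 is used in this tissue to separate epithelium from stroma, and fibroblasts are mostly found outside the CD24+ gate.

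Collagen cells made up 1.48% of the total epithelial library (exact binomial 95% interval 1.10 to 1.96%) and 1.61% of the sorted basal library (1.28 to 2.01%). These intervals overlapped, but the rule asks for fixed counts and the libraries differed in depth, so the shares do not compare abundance. They held 107019 UMIs in the first and 41692 in the second. A collagen cell had a median of 2015 UMIs in total epithelium and 466 in sorted basal, against library medians of 2425.5 and 487. Of 28 barcodes that occurred in both libraries, 0 belonged to a collagen cell. Many sorted basal cells lay near the threshold: among cells with 3 or fewer keratin counts, 5 total epithelial and 21 sorted basal cells had exactly 3 counts of the collagen and Dcn sum, and 10 and 33 cells just outside had 2. Asking for 5 counts left 50 of the 77 sorted basal cells. On the keratin side 7 cells in each library had 3 keratin counts, and 5 and 7 cells with collagen or Dcn were left out at 4. When the total epithelial cells were thinned to 487 UMIs each, 40 cells met the rule, of which 31 had met it before thinning. The others had 4 or more keratin counts before thinning, 6 with mostly basal and 3 with mostly luminal keratins. At low depth the rule thus also admitted keratin cells.

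The collagen cells were then divided by the rule genes themselves into 3 classes, a division made after the counts had been seen. Cells with at least 1 collagen count and at least 1 Dcn count numbered 24 of 49 in total epithelium (49.0%, 34.4 to 63.7%) and 22 of 77 in sorted basal (28.6%, 18.8 to 40.0%). Cells with collagen and no Dcn count numbered 17 (34.7%, 21.7 to 49.6%) and 36 (46.8%, 35.3 to 58.5%). Cells with Dcn alone numbered 8 (16.3%, 7.32 to 29.7%) and 19 (24.7%, 15.6 to 35.8%). The intervals of each class overlapped between the libraries, which does not show that the composition was the same. The class of a cell also depends on detecting a UMI, at median depths of 2015 and 466 UMIs.

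**Figure D1:**
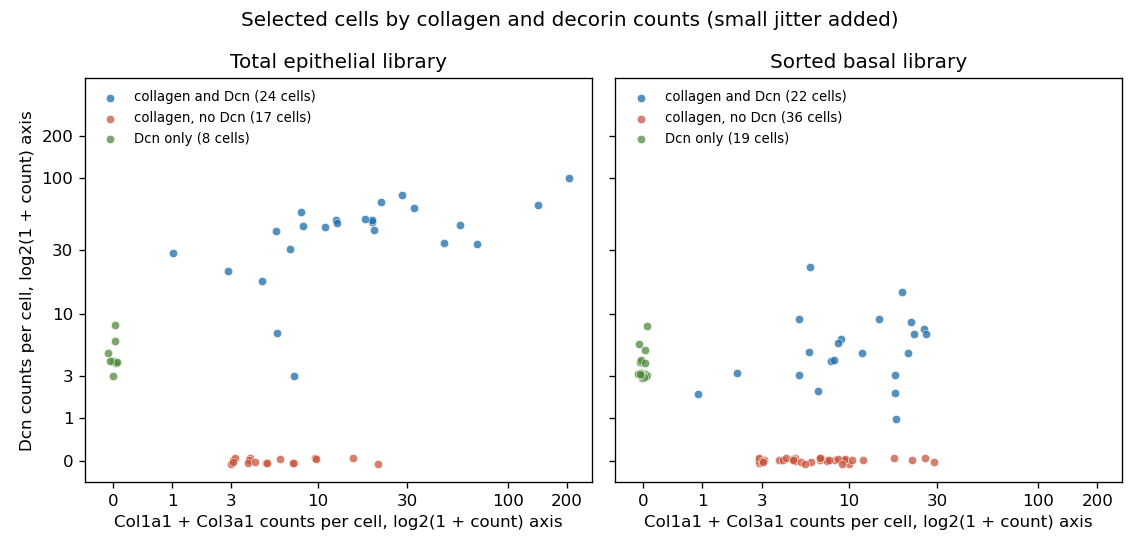
Col1a1 + Col3a1 counts (horizontal) against Dcn counts (vertical) of each selected cell, both on a log2(1 + count) axis, with the total epithelial library on the left and the sorted basal library on the right and colours for the 3 classes. In total epithelium the cells with both reached 208 collagen and 105 Dcn counts, whereas no cell with Dcn alone passed 8 Dcn counts in either library.

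The classes also differed in how many counts of Dcn and collagen a cell held. In total epithelium the 24 cells with both had 3 to 105 Dcn counts with a median of 45.5, and 1 to 208 collagen counts with a median of 16. The 8 cells with Dcn alone had only 3 to 8 Dcn counts (median 4), and the 17 cells with collagen alone had 3 to 22 collagen counts (median 5). In sorted basal, at the lower depth, the corresponding medians were 5 Dcn and 10.5 collagen counts in cells with both, 3 Dcn counts in cells with Dcn alone and 7 collagen counts in cells with collagen alone. Dcn was also detected in keratin cells: at least 1 Dcn UMI was present in 24.5% of the total epithelial cells with basal keratins and in 22.3% of those with luminal keratins, and in 5.36% and 7.26% of the sorted basal ones. A collagen and Dcn sum of 3 or more occurred in 362 total epithelial and 25 sorted basal cells with 4 or more keratin counts, of which 361 and 25 had a Dcn UMI. Cells called basal-keratin here had 4 or more keratin counts with more Krt5 and Krt14 than Krt8, Krt18 and Krt19, and luminal-keratin cells had the reverse. The first numbered 1142 in total epithelium and 2481 in sorted basal, with median depths of 1823 and 568 UMIs, and the second numbered 1988 and 179, with 3023 and 670.

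Of the 5 markers given for these cells, Col3a1 lay on chr1:45311538-45349706, Pi16 on chr17:29317680-29330593, Clec3b on chr9:123150946-123157432, Mfap5 on chr6:122505845-122529290 and Igfbp6 on chr15:102144362-102149511 (GRCm38), all protein-coding genes. Promoter windows of the collagen that chose most cells, of 2 other given markers and of Fgl2, whose level was highest in the cells with collagen alone, are shown to set side by side genes that differed between the classes. Each is a RefSeq window of GRCm38.p6 on the plus strand running from 250 bases before the gene's start to 50 after, and capitals mark TATAAA, the letters of a TATA box, read on either strand. The windows lay at chr1:45311288-45311587, chr17:29318632-29318931, chr15:102143936-102144235 and chr5:21372423-21372722 in the order printed. RefSeq and GENCODE place the starts differently, so that the Igfbp6 window ended before the GENCODE start given above and the Pi16 window lay wholly inside the GENCODE gene.
Col3a1: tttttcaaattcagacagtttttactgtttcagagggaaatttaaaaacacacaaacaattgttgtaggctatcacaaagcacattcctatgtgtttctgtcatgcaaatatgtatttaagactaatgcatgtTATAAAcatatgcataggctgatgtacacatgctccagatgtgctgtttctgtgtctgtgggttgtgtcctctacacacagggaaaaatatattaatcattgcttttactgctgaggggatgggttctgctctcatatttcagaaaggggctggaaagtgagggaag
Pi16: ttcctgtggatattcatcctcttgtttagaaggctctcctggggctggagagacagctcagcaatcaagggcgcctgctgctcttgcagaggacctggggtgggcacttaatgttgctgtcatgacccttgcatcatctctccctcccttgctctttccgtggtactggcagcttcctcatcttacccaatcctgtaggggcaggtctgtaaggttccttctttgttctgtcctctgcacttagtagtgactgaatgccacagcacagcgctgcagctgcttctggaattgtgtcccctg
Igfbp6: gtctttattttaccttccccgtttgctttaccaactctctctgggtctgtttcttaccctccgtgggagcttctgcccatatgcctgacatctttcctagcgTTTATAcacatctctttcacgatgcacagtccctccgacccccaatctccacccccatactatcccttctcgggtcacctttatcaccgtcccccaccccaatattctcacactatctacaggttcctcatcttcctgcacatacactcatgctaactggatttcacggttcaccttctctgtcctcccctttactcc
Fgl2: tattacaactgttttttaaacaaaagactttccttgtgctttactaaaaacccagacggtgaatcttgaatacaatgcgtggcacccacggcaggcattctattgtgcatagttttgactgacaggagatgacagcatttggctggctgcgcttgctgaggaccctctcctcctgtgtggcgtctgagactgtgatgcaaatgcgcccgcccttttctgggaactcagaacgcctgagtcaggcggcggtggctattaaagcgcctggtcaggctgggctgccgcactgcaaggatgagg
The motif began at base 134 of the Col3a1 window, 117 bases before the RefSeq start, and on the opposite strand at base 103 of the Igfbp6 window, and the Pi16 and Fgl2 windows did not hold these letters. TATAAA on either strand was present in 13.6% of all 32851 promoter windows of this length and in 10.2% of the 176 windows matched to genes that were higher in the collagen cells of both libraries, of which 131 of 183 genes were matched. Windows for Clec3b, Mfap5 and Dcn were not used here.

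The 24 and 22 cells with both collagen and Dcn carried the fibroblast markers. At least 1 UMI of Pi16, Clec3b, Mfap5 or Igfbp6 was present in 23 of the 24 total epithelial and 17 of the 22 sorted basal cells of this class. Among the cells with collagen but no Dcn the number was 0 of 17 and 1 of 36, and among cells with Dcn alone it was 0 of 8 and 0 of 19. Counts of 0 limit the share of cells with such a UMI to 17.6% of the 17 cells and, for the cells with Dcn alone, to 37.5% of the 8 and 15.8% of the 19, and say nothing of expression below detection at these depths.

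Pi16, a secreted peptidase inhibitor of the fibroblasts around vessels, was at 9371 CPM (counts scaled to a class total of 1000000) in the total epithelial cells with both (exact Poisson 95% interval 8596 to 10197) and at 8103 CPM in the sorted basal ones (6696 to 9719). Over all collagen cells Pi16 was at 5027 and 2854 CPM, against 9.07 and 6.06 CPM in basal-keratin cells, or 554-fold and 471-fold higher. It was detected in 34.7% and 22.1% of the collagen cells, and thinning each cell to 300 UMIs left 32.3% and 19.9%, over 49 and 66 cells of that depth. Among luminal-keratin cells a Pi16 UMI was present in 0.553% in total epithelium and in 0 of 179 in sorted basal, which allows up to 1.68%. A Pi16 UMI therefore occurred in a minority of collagen cells, but rarely outside them.

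Clec3b, Mfap5 and Igfbp6 followed Pi16 into the same class. Clec3b, which encodes the plasminogen-binding protein tetranectin, was at 4564 CPM in the total epithelial cells with both and 1886 CPM in the sorted basal ones, and was detected in 22 of 24 and 12 of 22. Mfap5, a protein of the microfibrils in elastic fibres, was at 4389 and 978 CPM and was detected in 23 of 24 and 7 of 22. Igfbp6, a binding protein of insulin-like growth factor II, was at 6479 and 1607 CPM and was detected in 23 of 24 and 10 of 22. The shares were lower in sorted basal for all 3 genes, and so was the depth of the cells of this class (602.5 against 2349.5 UMIs at the median). At 300 UMIs a cell, over all collagen cells, Clec3b was detected in 32.6% and 11.0%, Mfap5 in 29.8% and 7.02%, and Igfbp6 in 36.6% and 10.3%. Cells with both made up 49.0% and 28.6% of the collagen cells, so these shares do not compare that class at equal depth.

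**Figure D2:**
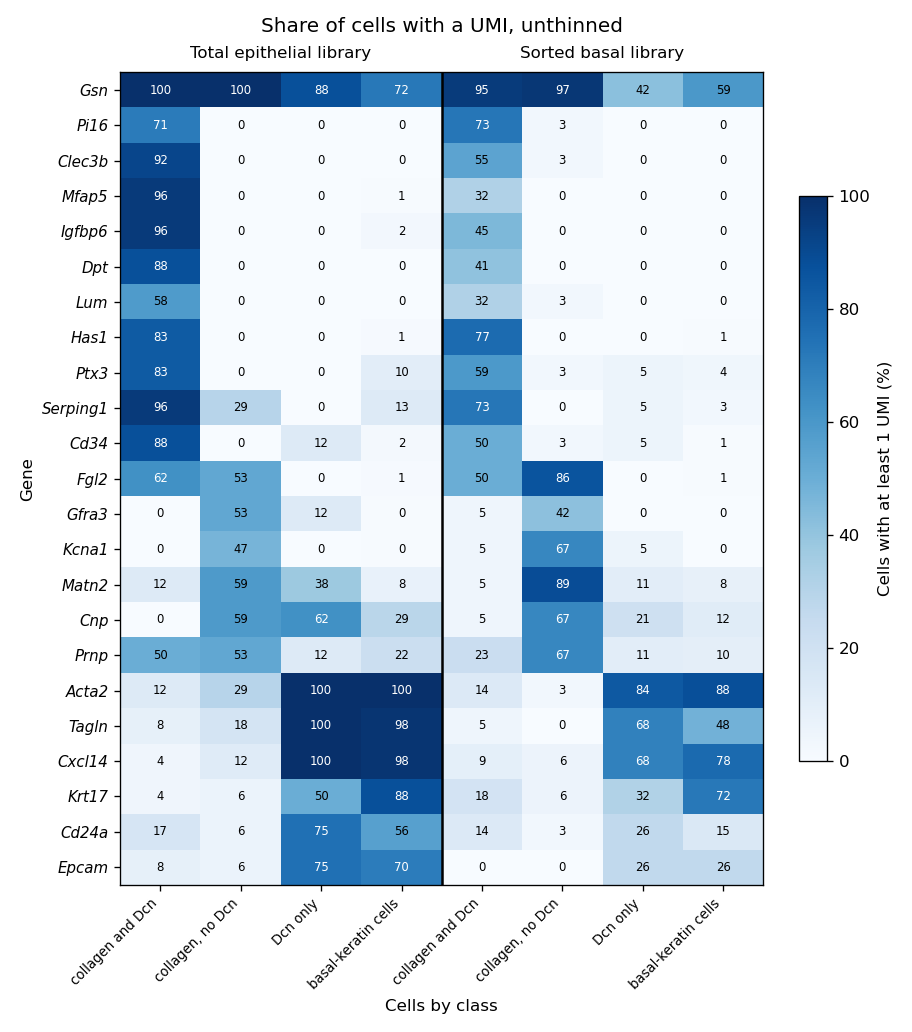
Share of cells with at least 1 UMI (percent, colour scale, not thinned) for genes in rows and classes of cells in columns, for both libraries. Within each library the shares of Pi16, Clec3b, Mfap5 and Igfbp6 are highest in cells with collagen and Dcn, and those of Gfra3 and Kcna1 in cells with collagen alone. Fgl2 is highest in both collagen classes, and Acta2 in cells with Dcn alone and basal-keratin cells. Several of these shares are well below all cells of the class.

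The matrix genes of these cells covered several parts of connective tissue. Col1a2, the partner chain of collagen I, was at 2351 and 5239 CPM in the cells with both, at 464 and 2370 CPM in those with collagen alone and at 0 counts in those with Dcn alone. Lum and Dpt, small proteins that organise collagen fibrils, were at 2439 and 2177 CPM in the total epithelial cells with both and at 978 and 1327 CPM in the sorted basal ones. Fn1, fibronectin, was at 1864 and 1537 CPM there and was not detected in the 17 total epithelial cells with collagen alone. Efemp1, a fibulin of elastic fibres, was at 2613 and 1118 CPM and reached 83.3% and 45.5% of the cells with both. The cross-linking enzyme Loxl1, which acts on elastin and collagen, was at 906 and 978 CPM.

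Has1, Ugdh, Uap1, Tnfaip6 and Ptx3 were among the leading genes of this class in both libraries. Has1, a hyaluronan synthase, was at 4058 CPM (3554 to 4614) in the total epithelial cells with both and 7893 CPM (6505 to 9490) in the sorted basal ones, and at 0 counts in the other collagen cells of both libraries. Ugdh, which makes the UDP-glucuronic acid used for hyaluronan, was at 4337 and 4610 CPM in the cells with both and at most 322 CPM in the other classes. Uap1, which makes the other sugar donor, was at 2978 and 5658 CPM, against at most 215 CPM in the other classes. Tnfaip6 and Ptx3, secreted proteins of the hyaluronan matrix, were at 5016 and 7002 CPM in total epithelium and at 1397 and 4959 CPM in sorted basal. These 5 genes were set side by side after their values were seen and are no list of their own.

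Cd34, Ly6a, Serping1 and Gsn were also higher in this class than in the other collagen cells. Cd34, a sialomucin of stromal progenitors and endothelium, was at 1707 and 2445 CPM in the cells with both. Ly6a, which encodes the Sca-1 antigen, was at 3571 and 1467 CPM, although it was also at 381 CPM in luminal-keratin cells of total epithelium. Serping1, the inhibitor of complement C1, was at 4006 and 4820 CPM, and over all collagen cells it was 27.7-fold and 26.9-fold higher than in basal-keratin cells. Gsn, the actin-severing protein gelsolin, was at 36299 and 83333 CPM, and it was present in 24 of 24 and 21 of 22 cells. It was not limited to this class, since cells with collagen alone held 5074 and 22626 CPM and basal-keratin cells 998 and 2574 CPM. The receptor Pdgfra, often used to define fibroblasts, gave 9 counts in 5 total epithelial and 2 counts in 2 sorted basal cells, all of this class.

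Cells with collagen and no Dcn carried a different set of genes. Kcna1, a voltage-gated potassium channel, was at 822 CPM (521 to 1233) in the total epithelial and 4022 CPM (3038 to 5223) in the sorted basal cells of this class, and was detected in 8 of 17 and 24 of 36. In the cells with both collagen and Dcn it had 0 and 1 counts. Gfra3, the receptor of the neurotrophic factor artemin, was at 1179 and 2586 CPM, against 0 and 1 counts in the cells with both. A UMI of Kcna1 or Gfra3 was present in 9 of 17 and 29 of 36 cells with collagen alone, in 0 of 24 and 1 of 22 cells with both, and in 1 of 8 and 1 of 19 cells with Dcn alone. This pair was taken from the leading genes of the class after their values were seen, so the counts are a description. Cells of this kind are named here only by their leading genes.

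Other genes that led the cells with collagen alone in both libraries encode matrix, myelin and membrane proteins and an enzyme. Matn2, a matrilin of the extracellular matrix, was at 1286 and 9338 CPM and was detected in 10 of 17 and 32 of 36 cells. Mbp, myelin basic protein, was at 643 and 1868 CPM and in 7 of 17 and 18 of 36 cells. Gatm, the first enzyme of creatine synthesis, was at 1572 and 2801 CPM. Prnp, the prion protein, was at 4037 and 7111 CPM, above 314 and 699 CPM in the cells with both.

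Fgl2, a fibrinogen-like secreted protein, was shared by both collagen classes. It was at 7146 CPM (6190 to 8208) in the total epithelial cells with collagen alone and at 24278 CPM (21759 to 27009) in the sorted basal ones. In the cells with both collagen and Dcn it was at 1829 and 3562 CPM and was present in 15 of 24 and 11 of 22 cells. Of the cells with collagen alone, 9 of 17 and 31 of 36 had an Fgl2 UMI, and 9 and 28 of these also had a UMI of Kcna1 or Gfra3. Over all collagen cells Fgl2 was 206-fold and 693-fold higher than in basal-keratin cells, on chr5:21372642-21378374.

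**Figure D3:**
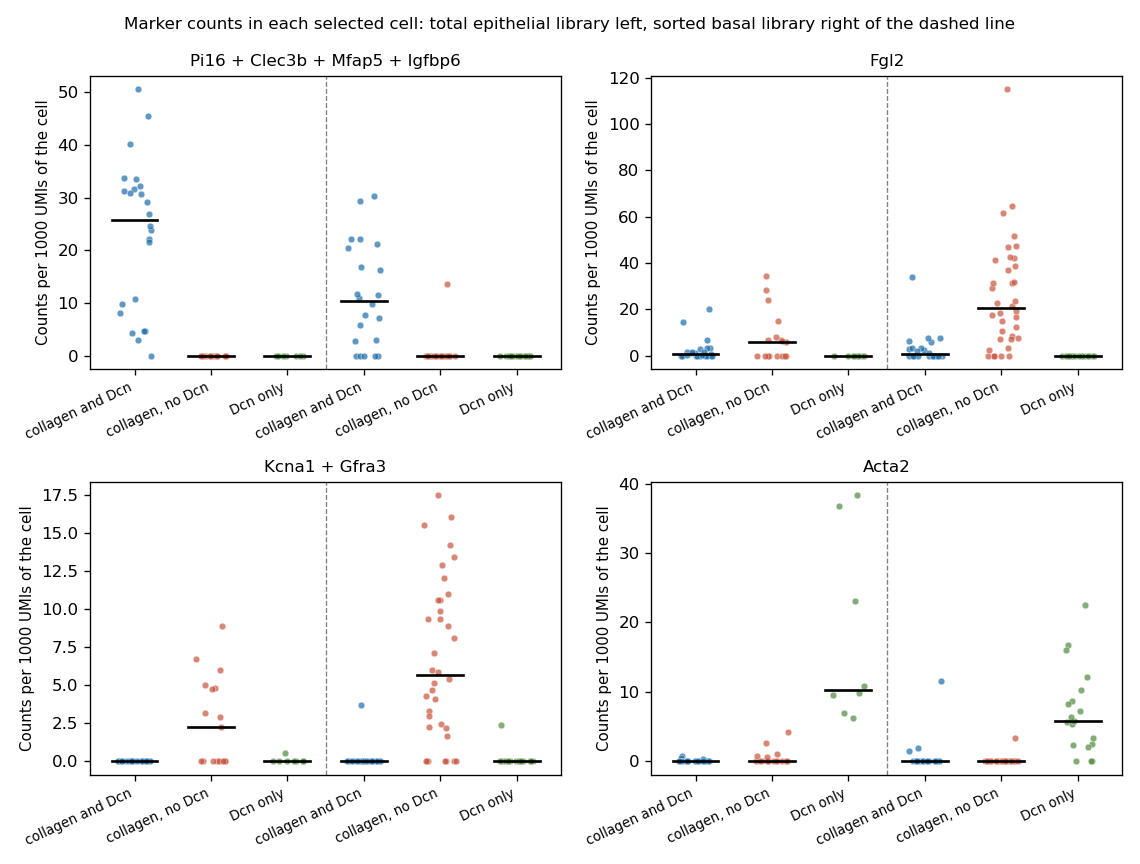
Summed marker counts per 1000 UMIs of each selected cell, a panel each for the 4 given markers, Fgl2, Kcna1 with Gfra3, and Acta2, with 1 point per cell, a bar at the median and the classes side by side (total epithelial library left and sorted basal library right of the dashed line). The given fibroblast markers are above 0 in 23 of 24 and 17 of 22 cells with both collagen and Dcn, and Kcna1 or Gfra3 in 9 of 17 and 29 of 36 cells with collagen alone.

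Pericyte markers were detected in some of the cells with collagen alone. In total epithelium a UMI of the pericyte and vascular smooth muscle markers Rgs5, Notch3, Cspg4, Kcnj8, Abcc9, Higd1b and Des was present in 6 of 17 cells, none of which had a UMI of Kcna1 or Gfra3, and 2 cells had neither. In sorted basal the same markers were at 0 in all 36 cells, which limits the share of cells with a UMI to 8.33% but not the share expressing these genes, as the cells had a median of 359.5 UMIs against 1402 in total epithelium, and 7 cells had neither these nor Kcna1 or Gfra3. Des, the muscle intermediate filament desmin, gave 11 counts and Rgs5, a regulator of G-protein signalling in pericytes, 8 counts in the 17 total epithelial cells. Endothelial markers gave 13 counts in 4 of these 17 cells and 0 counts in the 36 sorted basal cells. All 4 were among the 6 cells with a pericyte marker UMI. Igfbp7, an insulin-like growth factor binding protein of vessels and other tissues, was at 11398 CPM in the 17 cells and 2658 CPM in the 36.

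Cells with Dcn alone carried genes of basal epithelium. Acta2, the smooth muscle actin of contractile basal cells, was present in 8 of 8 total epithelial cells with 14 to 105 counts (median 24.5) and in 16 of 19 sorted basal cells with 0 to 13 counts (median 3). Its level was 14987 and 7210 CPM, beside 19948 and 8428 CPM in basal-keratin cells and at most 572 CPM in the other collagen classes. In total epithelium 1 of the 8 cells held 8220 of the 21619 UMIs of this class, so the CPM values of the class weigh that cell most. Cxcl14, a chemokine of basal cells, was at 2590 and 2601 CPM, against 4966 and 4201 CPM in basal-keratin cells. Tagln, an actin-binding protein of smooth muscle, was at 2683 and 2527 CPM. Col1a1, Col3a1, Col1a2, Pi16, Clec3b, Mfap5 and Igfbp6 were at 0 counts in all of these cells, the first pair by the definition of the class. Summed over the 7 basal epithelial markers Acta2, Myl9, Cxcl14, Mylk, Krt17, Oxtr and Trp63, the level was 21278 and 11892 CPM, against 105 and 1327 CPM in the cells with both and 1572 and 503 CPM in the cells with collagen alone. Keratins counted by the rule were at a median of 3 in the total epithelial cells with Dcn alone, the highest number the rule allows, and at 1 in the sorted basal ones.

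Cd24a and Epcam were detected in few cells of the 2 collagen classes and in more of the cells with Dcn alone. Cd24a, which encodes the CD24 antigen used to select both libraries, had a UMI in 4 of 24 total epithelial cells with both, 1 of 17 with collagen alone and 6 of 8 with Dcn alone, beside 56.0% of basal-keratin and 81.0% of luminal-keratin cells. At 800 UMIs a cell the shares were 5.45%, 1.45%, 41.5%, 33.7% and 49.1% in the same order. In sorted basal a Cd24a UMI was present in 3 of 22, 1 of 36 and 5 of 19 cells, and in 14.6% of basal-keratin cells. Epcam, the epithelial adhesion molecule, was present in 2 of 24, 1 of 17 and 6 of 8 total epithelial cells and in 0 of 22, 0 of 36 and 5 of 19 sorted basal cells. Itgb1, which encodes CD29, was at 402 and 1439 CPM over all collagen cells and 472 and 1349 CPM in basal-keratin cells. Ptprc and Pecam1, which encode the excluded antigens CD45 and CD31, were at 0 counts in the 49 and 77 collagen cells. Immune markers gave 2 and 1 counts in all, adipocyte markers 0. How far stray transcripts or pairs of cells in a droplet took part in these values was not tested.

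Outside the rule, Kcna1 was detected in some of the cells with few keratin counts, and Pi16 in fewer. The remainder, with 3 or fewer keratin counts and fewer than 3 collagen and Dcn counts, held 109 total epithelial and 1970 sorted basal cells at median depths of 1281 and 385 UMIs. Of these cells, 15 and 98 had 1 collagen or Dcn count, 10 and 33 had 2, and the others had none. A Kcna1 UMI was present in 8 of the 109 and 23 of the 1970 remainder cells, against 8 of 49 and 26 of 77 collagen cells. The share was thus lower in the remainder of both libraries, without thinning to equal depth. A Pi16 UMI was present in 1 and 5 of the remainder cells, against 17 and 17 collagen cells.

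Taken as 1 group, the collagen cells were compared with basal-keratin cells gene by gene. A gene was called where its CPM ratio passed 4-fold in the summed counts, with at least 10 counts over both groups and the lower total raised to 3 counts where it was below 3. In total epithelium 627 of 9598 genes were higher (6.53% of those tested) and 104 were lower (1.08%). In sorted basal 568 of 9065 were higher (6.27%) and 58 were lower (0.64%). The call is lenient for genes seen in a few molecules: with at least 10 counts in the collagen cells, 265 (2.76%) and 116 (1.28%) genes were higher. Scaling by the median of ratios lowered the log2 ratios by 0.27 and 0.38, and in sorted basal it gave 417 higher and 105 lower genes. Over luminal-keratin cells of total epithelium, 1125 of 11192 genes were higher (10.1%). Part of the tested genes could be called in neither direction: 2640 (27.5%) in total epithelium and 3953 (43.6%) in sorted basal had under 3 counts in the collagen cells and too few in basal-keratin cells for a fold, so their log2 ratio was set to 0. The median log2 ratio of 0.00 over all genes tested in both libraries follows from these genes, and over the other 6958 and 5112 it was 0.29 and 0.46. Of those genes 9.01% and 11.1% were higher and 1.49% and 1.13% lower. Some of them also had too few counts in basal-keratin cells to be called lower, because the collagen total was raised to 3 counts. The directions were thus not called on equal terms. The excess of higher genes and the positive medians follow in part from this rule and do not give a direction of change.

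Of 8605 genes tested in both libraries, 183 were higher in both (2.13%), which was 46.9% of the 390 higher in total epithelium and 35.9% of the 510 higher in sorted basal among those genes. With at least 10 counts in the collagen cells of each library there were 80 (0.93%). Lower in both were 27 genes (0.314%), which was 26.0% of 104 and 46.6% of 58. No gene was higher in 1 library and lower in the other.

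**Figure D4:**
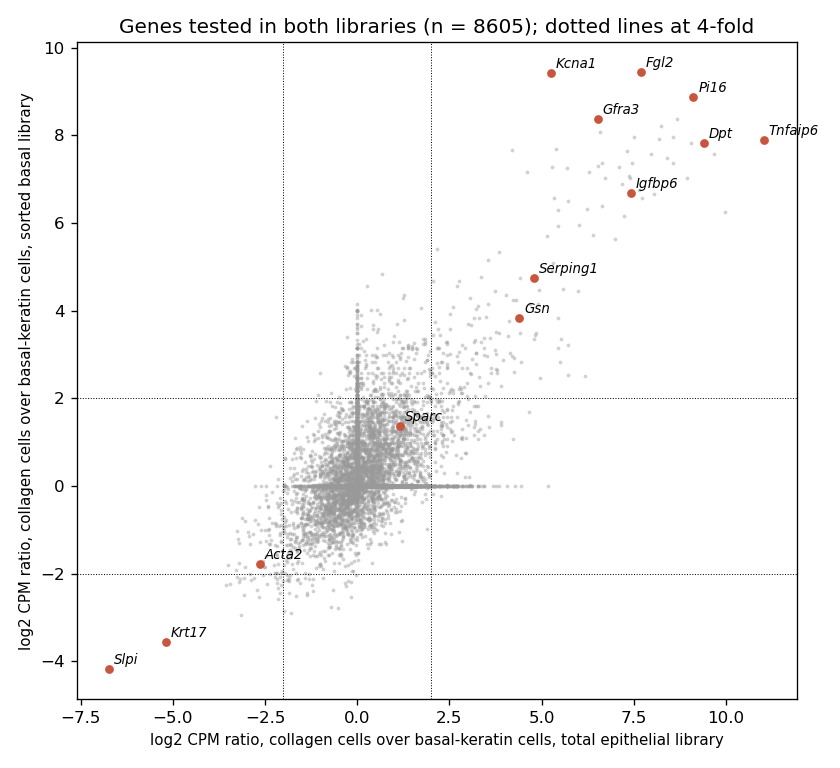
log2 CPM ratio of collagen cells over basal-keratin cells for the 8605 genes tested in both libraries, total epithelial on the horizontal and sorted basal on the vertical axis, with dotted lines at 4-fold. Points stacked exactly at 0 are genes with too few counts for a fold, whose ratio was set there. Fibroblast genes such as Pi16 and genes of the cells without Dcn such as Gfra3 and Fgl2 lie together at the upper right, and Slpi lies at the lower left.

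The gene lists showed which connective tissue functions were high. Over all tested genes 6.53% in total epithelium and 6.27% in sorted basal were higher, and 1.08% and 0.64% were lower. Of the tested fibroblast markers 12 of 13 were higher in total epithelium and 10 of 13 in sorted basal. They include Pi16, Clec3b, Mfap5 and Igfbp6, which were given for these cells, and lists below hold some of these again. Such counts are a description and not independent evidence. Adventitial fibroblast genes, typical of the fibroblasts around vessels, were higher for 11 of 14 and 7 of 10, with a median log2 ratio of 6.65 and 5.68 beside 0.00 over all genes tested and 0.29 and 0.46 over those with a fold of their own. Elastic fibre and microfibril proteins were higher for 8 of 12 in each library, proteoglycans for 5 of 9 and 1 of 7, and collagen processing enzymes for 5 of 10 and 3 of 9. Matrix proteases and inhibitors were higher for 7 of 11 and 4 of 10, with Htra3, a serine protease, at 523 and 600 CPM against 1.73 and 2.02 CPM. Parenchymal fibroblast and adipose progenitor genes were higher for 6 of 10 and 2 of 8, and 1 was lower in total epithelium. In total epithelium this list summed to 4466 CPM in the cells with collagen alone, 1219 CPM in those with both and 1686 CPM in basal-keratin cells. In sorted basal the same sums were 2514, 2096 and 3416 CPM. The remainder held 3917 CPM in total epithelium and 4088 CPM in sorted basal, so this list was not particular to the collagen cells either. Fabp4, the fatty acid binding protein of that list, was at 430 CPM in total epithelium, all of it in 5 cells with collagen alone, and at 0 counts in sorted basal. Of the 31 genes the study listed for its small cluster in total epithelium, 24 of 29 tested genes were higher in total epithelium and 17 of 23 in sorted basal, and as the study chose that list on the total epithelial library its direction is not independent evidence. The list was not particular to the collagen cells: it summed to 62232 CPM in them and to 61321 CPM in the total epithelial remainder, although in sorted basal it was at 72292 CPM against 7067 CPM in the remainder.

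Signals between cells were mixed. The shares over all tested genes to set beside them were 6.53% and 6.27% higher and 1.08% and 0.64% lower. Among chemokines and cytokines 8 of 11 were higher and 1 lower in total epithelium, and 4 of 8 were higher and 1 lower in sorted basal. Cxcl1, which attracts neutrophils, was at 2869 and 456 CPM, against 316 and 110 CPM in basal-keratin cells. Ccl2 and Ccl7, which attract monocytes, were at 1187 and 944 CPM in total epithelium, all of it in cells with both collagen and Dcn, and at 384 and 120 CPM in sorted basal. Complement and acute phase genes were higher for 5 of 8 and 4 of 8, with C3, the central complement protein, at 1045 and 768 CPM in the cells with both and 0 counts in the other classes. Modulators of Wnt and TGF-beta signalling were higher for 3 and lower for 2 of 12 in total epithelium and higher for 5 and lower for 1 of 12 in sorted basal. Sfrp2 and Sfrp4, secreted Wnt antagonists, were at 1097 and 819 CPM in the total epithelial cells with both, at 1607 and 1048 CPM in the sorted basal ones, and at 0 counts in the other classes. Of 7 tested factors that fibroblasts send to epithelium 1 was higher and 1 lower in total epithelium, and 0 of 5 were called in sorted basal. Igf1, a growth factor of ductal growth, gave 10 and 4 counts, and Fgf7, a ligand of the epithelial receptor FGFR2b, gave 5 and 0 counts.

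Outside the lists, the 10 genes with the largest ratios in total epithelium that passed 4-fold in sorted basal too were again divided between the classes. Mnda, Pla1a, Dpep1, Islr and Cd248 were mainly in the cells with both collagen and Dcn. Mnda, an interferon-inducible nuclear protein, gave 74 and 19 counts, all in that class, and was at least 534-fold higher than in the basal-keratin cells of total epithelium, where it had 0 counts. Cd248, the stromal membrane protein endosialin, was at 540 and 978 CPM in that class. Cadm4, Sfrp5, Art3 and Gatm were mainly in the cells with collagen alone. Cadm4, a cell adhesion molecule, was at 750 and 862 CPM there and 0 counts in the other classes, and Sfrp5, another secreted Wnt antagonist, at 679 and 862 CPM. Olfml2b, an olfactomedin-like protein, gave 11 and 11 counts in the 2 collagen classes of total epithelium and 4 and 35 in sorted basal.

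The 5 largest falls that passed in both libraries were epithelial genes. Slpi, a secreted protease inhibitor, was at 37.4 and 120 CPM in the collagen cells and 3951 and 2180 CPM in basal-keratin cells. Krt15, a keratin outside the rule, gave 2 and 1 counts, F11r, a tight junction protein, 1 and 1 counts, and Lamb3, a chain of the basement membrane laminin, 3 and 7 counts in the collagen cells. Fam101b, a regulator of actin, gave 4 and 6 counts, all in cells with Dcn alone. Basal epithelial markers were lower for 6 of 7 in total epithelium and 5 of 7 in sorted basal, beside 1.08% and 0.64% of all tested genes. Without the cells with Dcn alone 162 and 91 genes were lower in place of 104 and 58.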

How the data were processed

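Reads were counted by the authors in Cell Ranger (version 1.2.1 and build mm10 per the submitters' processing notes; the study's methods name another version, so the release used is uncertain), and raw UMI counts for 27998 genes in each cell were deposited unscaled. Cell calling and UMI collapse were done before deposit. Genes were read by symbol, and for 56 symbols on more than 1 row the row with most counts was used.

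All deposited cells were kept. No doublet caller was run, and stricter keratin and UMI limits were tried in its place. Counts were summed per class and library, scaled to CPM, and given with exact Poisson 95% intervals, and shares with exact binomial (Clopper-Pearson) intervals. With 1 library per gate no test was run. A call is a 4-fold CPM ratio with at least 10 counts over both classes and the lower total set to 3 counts where under 3; where that passed the other class the log2 ratio was set to 0. Shares of cells with a UMI were also computed as the mean share after thinning to 300 or 800 UMIs. In simulated data some unchanged genes were called higher, more of them in sorted basal. Many simulated falls were missed, most of them in sorted basal. Whether rises are recovered in genes with few counts was not tested. Upper limits for a count of 0 are 3 divided by the number of cells.

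The named genes were the rule genes and given markers, up to 4 of each of 29 lists with the highest summed CPM in the collagen cells of total epithelium, the 10 largest rises and 5 largest falls outside the lists that passed in both libraries, and the sort gate genes. Leading genes of a class passed 4-fold over the other collagen cells in both libraries. Genes named in the text beyond that rule were taken from the lists or the leading genes after their values were seen. Some genes are not reported here. The members and lists were chosen with earlier results of these data known.

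Positions came from GENCODE on GRCm38 and promoter windows from RefSeq (GRCm38.p6). Python 3.11.15 with numpy 2.4.6, scipy 1.17.1, pandas 2.3.3 and matplotlib 3.10.9 was used.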

Additional observations from a re-analysis of the deposited data

How the results depend on the processing

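Depth limits these values: a sorted basal collagen cell held 466 UMIs at the median, so a gene missing from it is not shown to be absent, and 1 library per gate gives no spread between mice. No paired analysis was possible because each gate has 1 library. Of 94 values recomputed under alternatives, 65 stayed within the limits set and 29 moved, and the cause was not tested beyond what each setting does by construction. Allowing no keratin count left 24 total epithelial and 51 sorted basal collagen cells, and asking for 5 collagen and Dcn counts left 50 in sorted basal. With a fold of 2, the genes higher and lower over basal-keratin cells numbered 1712 and 567 in total epithelium and 1653 and 347 in sorted basal, 2354 were higher over luminal-keratin cells and 550 in both libraries. With a fold of 8 the same numbers were 305 and 19, 226 and 2, 596 and 98. Without the count filter 1536, 1221, 1890 and 500 genes were higher in total epithelium, in sorted basal, over luminal-keratin cells and in both libraries. Median-of-ratios scaling gave 166 and 105 lower genes, and lowered the log2 ratios over luminal-keratin cells by 0.36. Chosen after seeing the data, a minimum of 10 counts in the collagen cells gave 265, 116, 363 and 80 higher genes in the same order, and leaving out the cells with Dcn alone gave 162 and 91 lower genes. Keeping only the cells with both collagen and Dcn, also chosen after seeing the data, moved none of its 6 counts past 1.5 times. The share of total epithelial collagen cells with a UMI fell to 57.8% for Col3a1 and 29.8% for Mfap5 at 300 UMIs a cell, from 83.7% and 46.9%.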

Other observations

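Immediate early genes, which are induced within minutes of a stimulus such as tissue dissociation, had a summed level that differed between the classes. None of the 12 tested genes of the list passed 4-fold over basal-keratin cells in the collagen cells as a whole, in either library. The share of all tested genes called within a class is not given here, so calls by class have no general rate beside them. In the cells with collagen alone 2 and 1 of the 12 were higher, with a median log2 ratio of 0.61 and 0.44. In the cells with both 2 and 0 were lower. Their summed level, of which Fos and Jun made up a large part, was 63134 and 75133 CPM in the total epithelial and sorted basal cells with collagen alone, 19142 and 32062 CPM in the cells with both collagen and Dcn, 30945 and 39022 CPM in the cells with Dcn alone, and 37309 and 42848 CPM in basal-keratin cells. Fos was at 20437 and 24709 CPM in the cells with collagen alone and at 2212 and 2864 CPM in the cells with both. Jun was at 8611 and 16592 CPM and at 1707 and 1956 CPM. Ribosomal protein genes moved the other way, with 4.59% and 1.43% of the counts in the cells with collagen alone and 7.37% and 4.38% in the cells with both, and the cells with collagen alone also had the lowest median depth, 1402 and 359.5 UMIs. The part of depth in these levels was not tested.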
